A study of Homo sapiens with 4 samples.

Results

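The regions described here are BRPF3-bound stretches of the genome whose ChIP-seq peak was nearly as wide in mimosine-arrested cells as in untreated cells. Peaks of the 3 BRPF3 lists that overlapped by at least 1 bp on chromosomes 1 to 22 were merged into 13623 regions. Of these, 8313 were under 8000 bp wide and held exactly 1 peak of each list, and are called shared regions. In 675 of the 8313 (8.12%, exact Clopper-Pearson 95% interval 7.54 to 8.73%), the width of the mimosine peak divided by the width of the asynchronous peak was 0.9 or more. These 675, chosen by that ratio of measured widths, are called width-keeping regions. They make up 4.95% of all merged regions on chromosomes 1 to 22. They hold 5.13% of the peaks of the asynchronous list, 5.85% of the mimosine list and 5.03% of the HU list. The other 7638 shared regions, with a ratio under 0.9, serve as the comparison, and 1201 of them with a ratio under 0.5 are called strongly narrowed.

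All 4 libraries came from RKO, an established human colon carcinoma line, grown in the same medium. BRPF3 was immunoprecipitated with a homemade rabbit antibody from untreated asynchronous cells, from cells kept for 22 h in 0.5 mM mimosine, and from mimosine-treated cells that were released for 3 h and then given 3 mM hydroxyurea (HU) for 1 h 30 min. The last are called HU cells, and they also carry the earlier mimosine treatment. A rabbit IgG library from HU cells was the control for all 3 lists, so it matches the condition of the HU list alone. The labels' title and antibody fields name BRPF3, while a description field names other BRPF proteins. There was 1 BRPF3 library per condition and no replicate, so no test between conditions was made, the values below describe these libraries, and intervals cover counting error only.

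BRPF3 is a scaffold subunit that joins a MYST-family acetyltransferase, chiefly HBO1 (KAT7), to chromatin, where the complex acetylates histone H3. HBO1 complexes are known for their place at gene starts and for a part in the licensing and firing of replication origins. Mimosine, a plant amino acid that binds iron, holds cells before or at the start of DNA replication, and HU lowers nucleotide pools and stalls replication forks. A peak is a stretch where the caller found more reads than in the control, so its width depends on the enrichment and on sequencing depth as well as on the length of DNA bound. The number of reads behind each list was not given in the sources used here.

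The rule used the widths of the asynchronous and mimosine peaks, so these widths are a description and carry no test. Across width-keeping regions the median width was 3196 bp in asynchronous cells (interquartile range 2428 to 3951 bp) and 3053 bp in mimosine cells (2384 to 3827 bp). In the other shared regions the medians were 2879 bp (2254 to 3707 bp) and 1902 bp (1330 to 2610 bp). The width-keeping peaks were thus typical to somewhat wide in asynchronous cells, and stood out by the mimosine width. Their median ratio was 0.952 (interquartile range 0.921 to 0.995), against 0.677 (0.560 to 0.776) in the others. Most lay near the threshold, with 330 of 675 (48.9%) between 0.9 and 0.95 and 195 (28.9%) between 0.95 and 1. The ratio was between 1 and 1.1 in 105 regions, between 1.1 and 1.2 in 30, between 1.2 and 1.5 in 10, and above 1.5 in 5.

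**Figure D1:**
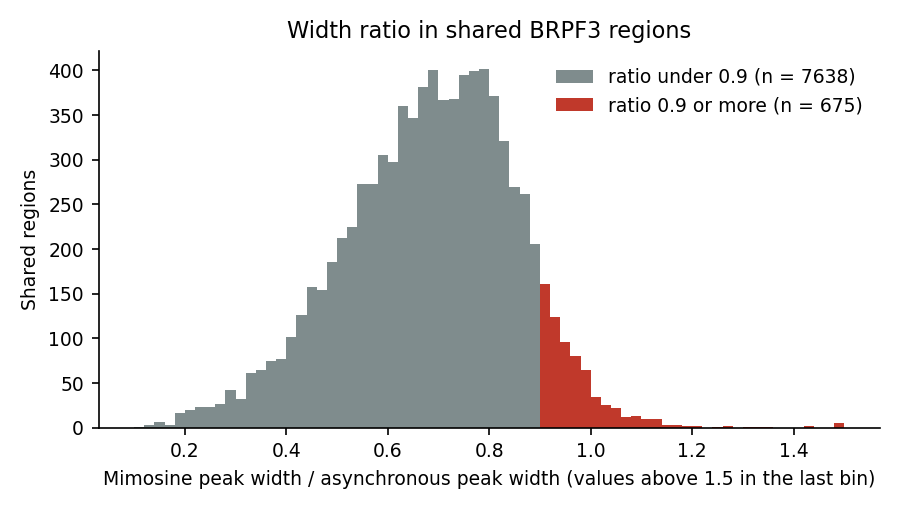
Histogram of the width ratio in the 8313 shared regions, with the mimosine peak width divided by the asynchronous peak width on the horizontal axis and the number of regions on the vertical axis. The 675 width-keeping regions (red) are the upper tail of a single distribution whose values are mostly between 0.5 and 0.9, with no gap at 0.9.

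No step was seen at the threshold of 0.9. The 330 regions just inside it, with ratios from 0.9 to 0.95, had median widths of 3253 bp in asynchronous, 2999 bp in mimosine and 3962 bp in HU cells. The 593 regions just outside it, with ratios from 0.85 to 0.9, had 3342, 2925 and 3999 bp. Single regions beside the threshold differ little in ratio. The closest inside is on chromosome 8, with peaks of 3471 bp in asynchronous, 3124 bp in mimosine and 7662 bp in HU cells. At chr20:48529227-48533544 (hg19, as all positions here) the peak was 3838 bp wide in asynchronous cells and 3455 bp in mimosine cells, a ratio just above 0.9 that made it a width-keeping region. At chr6:151709811-151714831 the asynchronous peak was 4763 bp and the mimosine peak 4286 bp wide, which left it just under. These examples stood at the 37.4th and the 86.96th percentile of scores in the asynchronous list, while the medians of the bands inside and outside were close, at 75.3 and 75.8. A score percentile here is the place of a peak among all peaks of its own list by the authors' score, which is the peak caller's own measure of confidence.

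The HU list took no part in the ratio, only in the requirement of 1 peak per list and in the limit of 8000 bp. In HU cells the width-keeping regions carried wide peaks, with a median of 4015 bp (interquartile range 3229 to 4949 bp). The 593 regions just outside the threshold, with ratios from 0.85 to 0.9, had nearly the same HU median, 3999 bp. Among the other shared regions the HU median was 3143 bp (2475 to 4047 bp), and among strongly narrowed ones alone it was 2612 bp (2088 to 3207 bp). Shared regions with a ratio of 0.5 to 0.9 had an HU median of 3261 bp. The 3 separate classes therefore kept the same order in the HU list as in the mimosine list, with broad overlap between them. This order was already there in the asynchronous list. Its medians were 3196 bp in width-keeping regions, 2959 bp at ratios of 0.5 to 0.9 and 2495 bp in strongly narrowed regions. Width-keeping regions also had the wider HU peaks among regions of similar asynchronous width. When the shared regions were divided into 5 equal groups by asynchronous width, the median HU peak of width-keeping regions was wider than that of the others in each group. The difference was 454 bp in the group with the narrowest asynchronous peaks (2468 against 2015 bp) and 563 bp in the group with the widest (5567 against 5004 bp). At similar asynchronous width the rule leaves width-keeping regions with wider mimosine peaks, so this comparison is not independent of the rule.

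**Figure D2:**
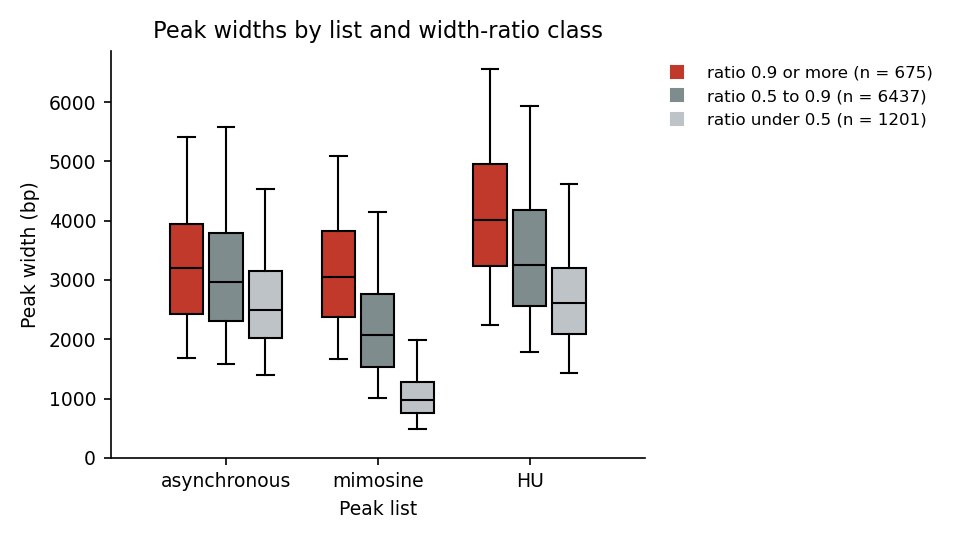
Box plot of peak width in bp by peak list for width-keeping regions (red), shared regions with a ratio of 0.5 to 0.9 (dark grey) and strongly narrowed regions (light grey). Lines are medians, boxes interquartile ranges and whiskers the 5th and 95th percentiles over regions. The asynchronous boxes of the classes overlap widely, with medians in the same order (3196, 2959 and 2495 bp). The mimosine boxes lie far apart by construction, and the HU boxes run from 4015 bp to 2612 bp in median.

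Against the asynchronous peak, which the rule shares, the HU peak was wider in 662 of 675 width-keeping regions (98.1%), where 75.1% of all shared regions had a wider HU peak. It was at least 1.2 times as wide in 411 (60.9%) against 26.4% of all shared regions, and at least 1.5 times as wide in 96 (14.2%) against 4.1%. The median HU to asynchronous ratio was 1.247 (interquartile range 1.14 to 1.38) in width-keeping regions and 1.08 (0.993 to 1.19) in the others. Both ratios have the asynchronous width as their denominator, so a narrow asynchronous peak lifts them together and these counts are not independent of the rule. Against the mimosine peak, which the rule shares as well, the median HU ratio was 1.29 (1.19 to 1.42) in width-keeping regions and 1.62 (1.41 to 1.96) in the others. Among regions of similar mimosine width, the HU peak of width-keeping regions was the narrower, with medians of 4835 against 5115 bp in the group with the widest mimosine peaks and 2824 against 3119 bp in the middle group. At similar mimosine width the rule leaves width-keeping regions with narrower asynchronous peaks. Their medians were 3871 against 4741 bp and 2108 against 2867 bp in the same groups, so this comparison is not independent of the rule. The HU peak spanned the whole merged region in 543 width-keeping regions (80.4%), against 46.9% of the others. In most of them the HU peak thus marked the outer limits, with the other 2 peaks inside it.

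Width-keeping regions had higher HU scores than the other shared regions as a whole, though not than those just below the threshold. Their median HU score percentile was 77.7 (interquartile range 60.1 to 89.0), against 58.6 (40.8 to 77.1) in the other shared regions and 38.0 (29.5 to 49.8) in strongly narrowed ones. The 593 regions just outside the threshold, with ratios from 0.85 to 0.9, had a median of 77.8, and the 330 just inside it 79.4. Of the 675, 153 (22.7%, 95% interval 19.6 to 26.02%) lay at or above the 90th percentile of the HU list, against 9.22% (8.58 to 9.89%) of the others and 0.583% (0.235 to 1.197%) of strongly narrowed regions. At the other end, 13 (1.93%) lay under the 25th percentile, against 5.77% and 14.2%. The same order held for the score percentile in the lists that the rule used, with medians of 71.3 against 58.3 in asynchronous and 74.6 against 51.5 in mimosine cells.

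The share of shared regions that kept their width was larger at stronger and wider HU peaks. With the shared regions in 10 equal groups by HU score, it went from the lowest to the highest group from 2.53% (21 of 831, 95% interval 1.57 to 3.84%) to 18.1% (151 of 832, 15.6 to 20.9%). In 10 groups by HU peak width it went from 2.65% (1.67 to 3.98%) to 16.3% (13.9 to 19.04%). In 10 groups by asynchronous width it lay between 5.78% and 10.8%. The asynchronous width is the denominator of the ratio, so the rule itself works against a rise with it. The asynchronous grouping is therefore no contrast to the HU groupings. In every one of these groups most shared regions fell short of the ratio of 0.9.

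**Figure D3:**
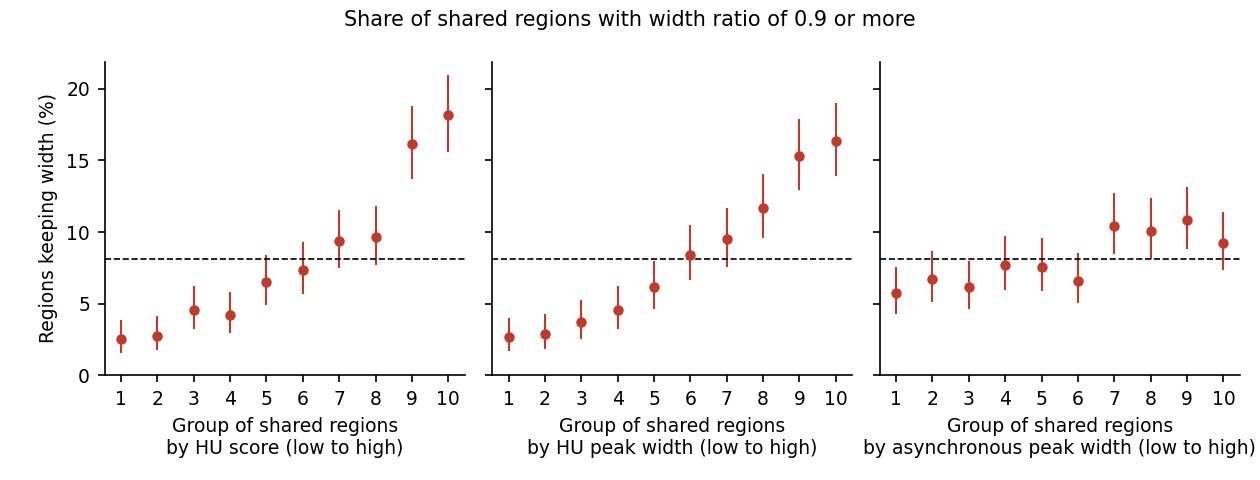
Percentage of shared regions that kept their width, in 10 equal groups by HU score, by HU peak width and by asynchronous peak width (group 10 is the highest, 831 or 832 regions each). Points are shares, bars are exact 95% intervals and the dashed line is the overall 8.12%. The share goes from 2.53 to 18.1% with HU score and from 2.65 to 16.3% with HU width, and stays between 5.78 and 10.8% with asynchronous width. Asynchronous width is the denominator of the ratio, so its panel is no contrast to the HU panels.

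Score and width go together in these lists, and the part of each in the pattern was not tested. Among regions of similar asynchronous score, the HU score percentile of width-keeping regions was still the higher in each of 5 groups, by 8.83 points in the lowest group (39.97 against 31.1) and 3.01 points in the highest (92.7 against 89.7). Among regions of similar mimosine score the medians were close together. They were 45.2 and 45.5 in the second group, 59.6 and 59.9 in the middle group, 73.9 and 74.3 in the fourth, and 90.7 and 89.99 in the highest. The largest gap was in the lowest group, where 30 width-keeping regions stood at 29.7 and the others at 31.5. In the median, width-keeping regions thus had a usual HU score for their mimosine score and a high one for their asynchronous score. The rule favours mimosine peaks that are wide for their asynchronous peak, and width goes with score. Neither comparison is therefore independent of the rule, and both are given as a description.

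The edges of the peaks, like the widths, belong to the rule and are given as a description. In the other shared regions 94.6% of mimosine peaks lay wholly inside the asynchronous peak, and they began a median of 417 bp and ended 416 bp within it. In width-keeping regions the mimosine peak began 83 bp and ended 79 bp within the asynchronous peak in the median. It lay wholly inside in 242 of 675 (35.9%, 95% interval 32.2 to 39.6%). In 397 (58.8%) it passed the asynchronous peak on 1 side and stopped short on the other, with 201 passing on the left and 196 on the right. In 36 (5.33%) it passed on both sides, which occurred in 0 of the other shared regions, as the rule itself requires. With widths nearly equal by the rule, a small offset can carry an edge of the mimosine peak past the asynchronous one. These shares are therefore tied to the choice of regions. The centres of the 2 peaks were a median of 114 bp apart (interquartile range 52.5 to 205 bp). In the others they were 162 bp apart (71 to 296 bp). For comparison, the HU and asynchronous centres were 195 bp apart in width-keeping regions and 132 bp apart in the others.

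**Figure D4:**
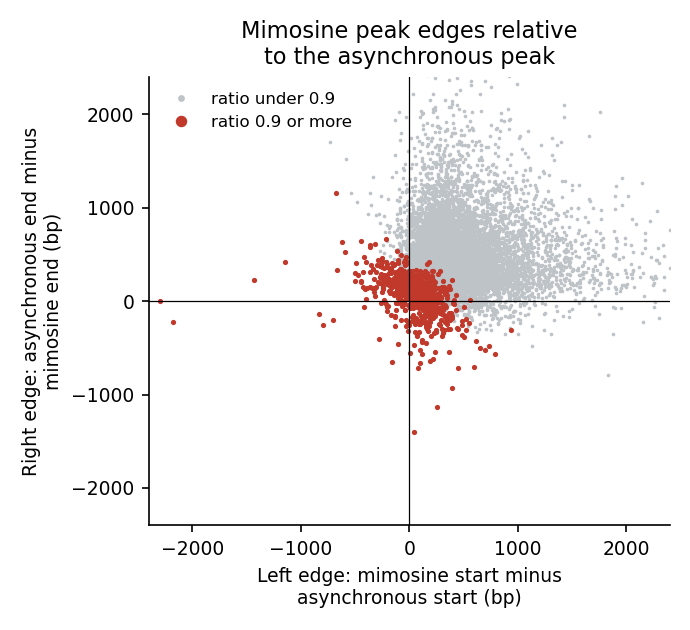
Scatter plot of the mimosine peak edges relative to the asynchronous peak in each shared region, in bp, with the left edge on the horizontal and the right edge on the vertical axis. Positive values mean that the mimosine edge lies inside the asynchronous peak. Width-keeping regions (red) lie around the diagonal where a gain on one side meets a loss on the other, and the other regions (grey) fill the quadrant where both edges lie inside. A further 49 grey regions lie outside the 2400 bp limits.

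The mimosine peak was wider than the asynchronous one in 149 regions, which is 22.1% of the width-keeping and 1.79% of all shared regions. In 1 more, chr5:176430529-176434610, both peaks were 2881 bp wide, offset by 78 bp, inside an HU peak of 4082 bp. The asynchronous width is the denominator of the ratio that separates these 150 regions from the 525 with ratios of 0.9 to 1, so the values are a description. Their median asynchronous peak was 2768 bp wide and stood at score percentile 62.7, against 3256 bp and percentile 74.6. Their mimosine peaks had similar medians to the 525, at 2987 against 3069 bp, and so did their HU peaks, at 4125 against 3994 bp. Their score percentiles were lower in these lists too, with medians of 71.4 against 75.9 in the mimosine and 73.1 against 79.4 in the HU list. At or above the 90th percentile of the HU list lay 12.0% of the 150 (95% interval 7.27 to 18.3%) and 25.7% of the 525 (22.03 to 29.7%). In all 150 the HU peak was wider than the asynchronous one. The score percentile was higher in the mimosine than in the asynchronous list for 110 of the 150 (73.3%), against 290 of the 525 (55.2%) and 30.7% of all shared regions. It was higher in the HU than in the asynchronous list for 124 (82.7%) and 385 (73.3%), against 55.6% of all shared regions. A percentile is a place within 1 list, so it can rise while the score falls. The score itself was higher in the mimosine than in the asynchronous list in 40 of the 150 (26.7%). The same held for 46 of the 525 (8.76%) and 3.68% of all shared regions.

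The largest ratios came with several orders of the 3 peaks. The highest ratio, 2.83, was at chr14:62213617-62218758. The peak there was 1257 bp wide in asynchronous, 3555 bp in mimosine and 5142 bp in HU cells. Its score percentile was 20.4, 63.4 and 62.2 in the same order, and the mimosine peak began 2301 bp to the left of the asynchronous one and ended within 3 bp of it. At chr19:18261964-18265833, with a ratio of 1.60, the widths were 2030, 3238 and 3870 bp and the percentiles 37.2, 61.1 and 43.7. At chr11:566749-570058, with a ratio of 1.55, the widths were 1755, 2722 and 3310 bp, and the mimosine peak passed the asynchronous one by 830 bp on the left and 137 bp on the right. At chr11:102186881-102191577, with a ratio of 1.54, the asynchronous peak was 1061 bp, the mimosine peak 1631 bp and the HU peak 4697 bp wide, so the HU peak stood apart there. The other region among the 5 of highest ratio is on chromosome 8, with a ratio of 1.69. A high ratio selects narrow asynchronous peaks, and width goes with score, so low asynchronous scores at these sites are part of the choice and support nothing. Over the 15 regions with a ratio of 1.2 or more, the median score percentile was 27.5 for asynchronous peaks, 63.4 for mimosine peaks and 62.2 for HU peaks. The mimosine percentile was above the asynchronous one in 14 of the 15, and the HU percentile in all 15. The mimosine score itself was above the asynchronous score in 10 of the 15.

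Some width-keeping regions had scores near the top of the range. The authors' score piles up at 3100. Above that value lay 77 peaks of the asynchronous, 30 of the mimosine and 68 of the HU list, up to 3233.06. At least 1 of the 3 peaks scored 3100 or more in 130 width-keeping regions (19.3%, 95% interval 16.4 to 22.4%). The share was 7.53% (6.95 to 8.14%) of the others and 0.500% (0.184 to 1.08%) of strongly narrowed regions. All 3 peaks scored 3100 or more in 40 (5.93%) and in 1.45% of the others. Scores tied at 3100 do not order the sites. The regions named next were picked for a high percentile in each list. At chr17:43223627-43229914, ranked among the 5 best by its lowest percentile, the widths were 5814 bp in asynchronous, 5798 bp in mimosine and 6288 bp in HU cells, and the mimosine edges lay 4 and 20 bp from the asynchronous ones. At chr17:75314954-75320416 they were 5235, 5023 and 5463 bp. At chr19:15439600-15444492 they were 3792, 3761 and 4893 bp, so the HU peak alone was wider there.

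The widest regions were mostly strong ones as well. The widest, chr1:59245051-59252880, had peaks of 6858 bp in asynchronous, 6234 bp in mimosine and 7830 bp in HU cells. Its mimosine peak began 934 bp inside the asynchronous peak on the left and passed it by 310 bp on the right. At chr19:2162748-2170532 the widths were 6705, 6459 and 7785 bp, and at chr17:74377804-74385429 they were 6171, 5809 and 7626 bp, all with the score of 3100 in each list. A different case was chr19:49464223-49471949, where the asynchronous and mimosine peaks were 4973 and 4501 bp and the HU peak 7727 bp wide. The limit of 8000 bp cuts this end of the distribution.

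The HU peak was narrower than the mimosine peak in 3 width-keeping regions (0.444%), where 0.0601% of all shared regions had a narrower HU peak. They were chr19:12097737-12100720, with widths of 2417 bp in asynchronous, 2719 bp in mimosine and 2565 bp in HU cells, chr17:78118089-78122697, with 3880, 4360 and 4309 bp, and 1 on chromosome 8. In these regions the mimosine peak was the widest of the 3. At chr4:187643324-187648681 the 3 widths were nearly equal, at 4889, 5205 and 5305 bp, with the score of 3100 in each list. At the opposite end was chr19:3759069-3763908, where the HU peak of 4840 bp was 3.01 times as wide as the mimosine peak of 1606 bp and the asynchronous peak had 1753 bp. At chr22:19971385-19975026 the widths were 1221, 1473 and 3642 bp. There the first 2 lists gave a narrow peak alike, and HU cells a much wider one.

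Very low asynchronous scores were rare in width-keeping regions and elsewhere. HU percentiles under 25 were less frequent in width-keeping regions, at 1.93% against 5.77% of the others. The asynchronous score was under 100 in 6 of 675 (0.889%, 95% interval 0.327 to 1.92%), against 1.36% (1.11 to 1.65%) of the others. The lowest HU percentile, 9.51, was at chr19:42781890-42785924, a region chosen after its values were seen, which stood at percentile 10.97 of the asynchronous and 5.94 of the mimosine list. Its peaks were 2156, 2247 and 4035 bp wide. At chr4:140035848-140036782, also chosen so, the widths were 382, 441 and 935 bp, so that a few bp weighed heavily in the ratio.

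Width-keeping regions were found on every autosome. Their share of the shared regions of a chromosome went from 3.73% on chromosome 6 (16 of 429, 95% interval 2.15 to 5.99%) to 11.7% on chromosome 21 (9 of 77, 5.49 to 21.0%). The interval held the overall share of 8.12% on 20 of the 22 chromosomes. The exceptions, singled out after their values were seen, were chromosome 6, below it, and chromosome 7, above it, with 49 of 450 regions (10.9%, 8.16 to 14.1%). Among 22 separate 95% intervals, some can leave out the overall share through counting error alone. The median HU percentile was 58.2 among the shared regions of chromosome 6 and 59.8 among those of chromosome 7. Among regions in the upper 50% of the HU list, 13 of 259 on chromosome 6 kept their width (5.02%, 2.70 to 8.43%) and 43 of 294 on chromosome 7 (14.6%, 10.8 to 19.2%), against 10.8% (9.95 to 11.6%) on all autosomes. In the lower 50% the shares were 3 of 170 on chromosome 6 (1.76%, 0.365 to 5.07%) and 6 of 156 on chromosome 7 (3.85%, 1.42 to 8.18%), and both intervals held the 3.43% of all autosomes. Copy number in RKO was not analysed here. Chromosome 19, which is rich in genes, held 48 width-keeping regions, 7.11% of them (5.29 to 9.32%), and 6.77% of the others.

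**Figure D5:**
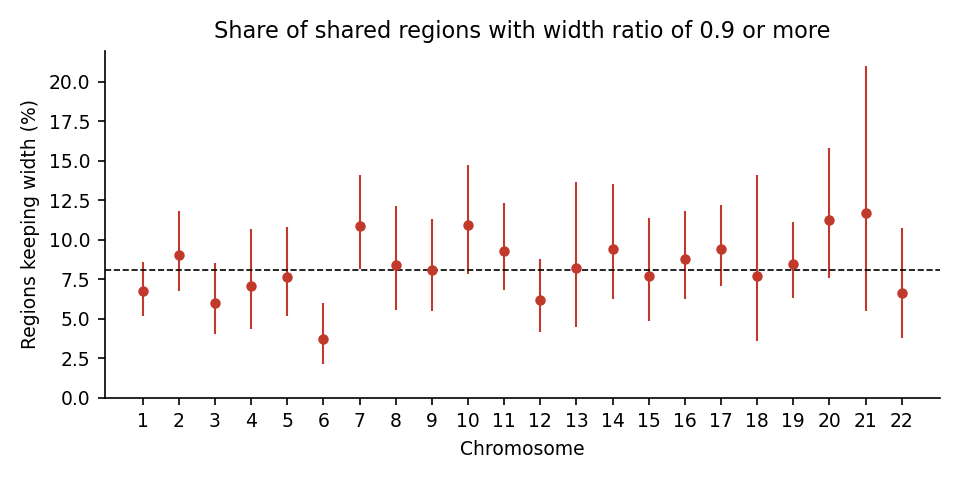
Percentage of the shared regions of each autosome that kept their width. Points are shares, bars are exact 95% intervals and the dashed line is the overall 8.12%. The intervals of chromosomes 6 and 7 leave that line out, on opposite sides, and those of the other 20 chromosomes include it.

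The width-keeping regions lay somewhat closer to other BRPF3 regions and to each other. The nearest merged region of any kind was a median of 25.1 kb away (interquartile range 9.39 to 55.9 kb), against 30.1 kb (10.1 to 74.6 kb) for the other shared regions. A gap of over 100 kb was found for 81 (12.0%, 95% interval 9.64 to 14.7%), against 18.1% (17.2 to 18.96%). The share within 5 kb was similar, at 17.5% (14.7 to 20.6%) and 15.6% (14.8 to 16.4%). The nearest shared region was itself width-keeping for 79 of 675 (11.7%, 9.38 to 14.4%), against 618 of 7638 others (8.09%, 7.49 to 8.73%). With the neighbour within 50 kb the shares were 13.8% (10.5 to 17.7%) and 8.35% (7.50 to 9.27%). Regions nearest to each other are counted from both sides, so these counts are not independent and their intervals are too narrow. The neighbour's median width ratio was 0.716 beside a width-keeping region and 0.694 beside another, so most neighbours were narrowed in either case. The classes also differ in HU score, as given above, and the part of that difference in these distances was not tested. There were 10 pairs of width-keeping neighbours within 10 kb. The closest, chr19:42781890-42785924 and chr19:42787140-42790329, lay 1215 bp apart with ratios of 1.042 and 0.905, and the next, chr1:24115235-24121192 and chr1:24124397-24128636, 3204 bp apart with 1.023 and 0.941.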

How the data were processed

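Each BRPF3 library is represented by 1 list of peak positions and scores that the authors deposited. The deposited score has the form of the MACS value, 10 times the negative base-10 logarithm of a p-value, as read from the peak names and the lowest value of 50. Per the labels, processing used Bowtie 0.12.8, SAMtools, MACS 1.4.0 and bedtools, named in the submitters' processing notes with no roles or settings, and both hg18 and hg19. Of 19 chromosome lengths checked, which were entered by hand from general knowledge and not read from a genome file, peaks of each list ran past at least 11 in hg18 and GRCh38 and past 0 in hg19, so the build was taken to be hg19 (positions 1-based). The deposited positions, the other values used, are in bp. The lists' names give the IgG library as control.

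Peaks were merged and measured with Python 3.11.15, pandas 2.3.3 and NumPy 2.4.6, and intervals were computed with SciPy 1.17.1. Score percentiles are ranks within the full list, with ties averaged. In simulated lists made from 12120 asynchronous peaks with 200 planted width-keeping regions, 100% of those in single-peak regions were found, with 0 false ones. The simulated ratios left a gap around 0.9 and held no noise. The result therefore checks the code and gives no accuracy for the selection in the real lists. The members and lists were chosen with earlier results of these data known. Named regions were taken from the 5 of highest ratio, best lowest percentile, greatest width, and highest and lowest HU to mimosine ratio, and the 3 on either side of 0.9. Outside these rules, the region of equal widths, regions of low percentile, the closest pairs and a region on chromosome X were also named. No genome or annotation of hg19 was used, so planned promoter shares, genes, GC content and sequences are not given.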

Additional observations from a re-analysis of the deposited data

Results flagged for a closer look

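Chromosome X lies outside the rule. There, 6 of 191 shared regions under 8000 bp (3.14%, exact 95% interval 1.16 to 6.71%) had a mimosine peak at least 0.9 times as wide as the asynchronous one. This is below the 8.12% on chromosomes 1 to 22, whose value lies above that interval. The count was listed because the report's comparisons leave the chromosome out and it exceeds the 3 counts that a count of 0 allows. The median ratio over the 191 was 0.572. The highest ratio was 1.12 at chrX:118738269-118740779, where the peaks were 2185 bp wide in asynchronous, 2453 bp in mimosine and 2338 bp in HU cells.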

How the results depend on the processing

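Every alternative was planned, and 12 results were recomputed under 7 of them; 66 of 83 values stayed within the error of the main value, or within 1.5 times for the number of regions. A minimum ratio of 1.0 left 150 regions, 1.80% of the shared ones, with median ratios of 1.05 for mimosine and 1.396 for HU to asynchronous, score percentiles of 62.7, 71.4 and 73.1 in the asynchronous, mimosine and HU lists, and 0% of mimosine peaks inside the asynchronous peak, by construction. Without regions holding a score of 3100 or more, the share was 7.16%, the percentiles 64.97, 68.1 and 71.2, the HU width 3735 bp, the HU to asynchronous ratio 1.26 and the inside share 31.0%. With scores of 100 or more, the share was 8.96% and the distance to the nearest region 32.0 kb. Merging within 1 kb, dropping the width limit, an asynchronous peak of at least 1500 bp and leaving out chromosome 19 moved none of them. In each of the 7, width-keeping regions had wider HU peaks, higher HU percentiles and nearer neighbours than the others. Without the 3100 scores the HU widths were 3735 and 3033 bp. Promoter and sequence alternatives were not run, since no hg19 genome or annotation was used. No paired analysis was possible because each condition had 1 library. Read depth is unknown and limits what a width difference means.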

Other observations

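Regions of 8000 bp or more were left out by the rule. Of the 143 such regions with 1 peak per list on chromosomes 1 to 22, 29 (20.3%, exact 95% interval 14.0 to 27.8%) had a mimosine peak at least 0.9 times as wide as the asynchronous one. Their median widths were 7747 bp in asynchronous, 7510 bp in mimosine and 8843 bp in HU cells. The median ratio over the 143 was 0.799.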
